A study of Mus musculus with 12 samples.

Results

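The genes described are the integrin subunits, the laminin chains with the nidogens and perlecan, and the proteins that tie integrins to the actin cytoskeleton at focal adhesions. They were chosen by gene symbol: Itga, Itgb, Lama, Lamb, Lamc or Nid followed by a digit, any symbol beginning with Tln, Parv or Fermt, and Hspg2, Vcl, Ptk2, Pxn, Ilk, Zyx and Bcar1. The rule took 35 of the 11015 genes that had a probe set of their own. Among the 35 are 7 alpha integrins, 6 beta integrins, 6 laminin chains, 3 nidogen and perlecan genes, and 11 adhesion genes of the cytoplasmic side. The letters of the rule also took Itgb1bp1 and Itgb3bp, which are named for binding a beta integrin tail and are not subunits themselves. Ptk2, focal adhesion kinase, was not analysed here.

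RNA came from cultured endothelial cells of mouse aorta, taken at 4 weeks of age, and was measured on Affymetrix expression arrays. The arrays labelled double null carried Ets1-/- with Ets2 fl/fl and received a lentivirus with egfp and Cre. The Ets1 null arrays carried the same alleles and received a lentivirus with egfp alone, so they also bear the floxed Ets2 allele. The Ets2 null arrays were Ets1+/+ with Ets2 fl/fl and received the egfp and Cre virus, and the wild type arrays were Ets1+/+ with Ets2+/+ and received the egfp virus. Deletion of Ets2 and exposure to Cre therefore always go together and cannot be told apart. The titles give 3 biological replicates a group without naming the animals, so a p-value here reflects the variation among these arrays, which may be technical. The third column labelled double null equalled the mean of the other 2 in 20521 of 20523 probe sets and was left out, which leaves 2 arrays in that group and 3 in each of the others.

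Endothelial cells rest on a basement membrane, a sheet in which laminins and type IV collagen form networks that nidogens and perlecan join. A laminin is a trimer of an alpha, a beta and a gamma chain. Integrins are receptors made of an alpha and a beta subunit that span the membrane. Inside the cell, talin and kindlin bind the beta tail and switch the receptor to its active form, after which integrin-linked kinase, the parvins, paxillin, vinculin and zyxin gather into a focal adhesion bound to actin. Ets1 and Ets2 are closely related transcription factors that bind a GGAA core and are expressed in endothelium.

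Facts of the whole series bear on every value given here. Array medians were 9.05 to 9.15 (log2) in 9 arrays, against 8.30 and 8.29 in the pair labelled double null. Levels are therefore given as log2 values minus the median of their own array ("centred"), with the deposited values as an alternative. Over all genes the median difference between the arrays labelled double null and wild type was 0.11 on the centred scale and -0.61 as deposited. The Ets1 probe set had centred values of 1.29 and 1.60 in both arrays labelled double null, -1.16, -0.70 and -0.32 in the Ets1 null arrays, 0.09, 0.16 and 0.43 in the Ets2 null arrays, and 0.89, 0.41 and 0.56 in wild type. It was thus low in the Ets1 null arrays and highest in the arrays labelled double null, which exceeded the Ets1 null arrays by 2.17 ± 0.25 (limma, SE, adjusted p = 0.000713). The label of that group is not borne out by this probe set, whose position relative to the deleted part is not given in the sources used here. Every direction below that involves this group is a direction of arrays so labelled. Ets2 had centred values of 2.28 and 0.94 in both arrays labelled double null, 0.81, 0.91 and 1.05 in the Ets1 null arrays, 0.22, -0.05 and 0.68 in the Ets2 null arrays, and 0.35, 0.58 and 1.21 in wild type. The Ets2 null and wild type ranges overlapped. Both arrays labelled double null lay above every Ets2 null array, with a mean difference of 1.33 ± 0.40 (limma, SE, adjusted p = 0.0325). The label is thus not borne out by the Ets2 probe set either.

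The labelled cell type was checked against marker lists. Of 14 endothelial markers, 5 were on the table (Kdr, Cd34, Eng, Egfl7 and Fabp4), and their mean centred value ranged from -2.24 to -0.71 in both arrays labelled double null, -2.38 to -1.42 in the Ets1 null arrays, 0.18 to 0.64 in Ets2 null and -0.42 to 0.35 in wild type. The 4 epithelial and mesothelial markers on the table lay between 0.11 and 0.20 in both arrays labelled double null, 0.35 and 0.79 in the Ets1 null arrays, -1.43 and -1.07 in the Ets2 null arrays, and -2.09 and 0.28 in wild type. For 9 of 10 fibroblast markers the ranges were 0.26 to 1.36 in both arrays labelled double null, -0.60 to 0.17 in the Ets1 null arrays, -0.06 to 1.18 in Ets2 null and 0.29 to 0.64 in wild type. Smooth muscle and pericyte markers (8 of 10) gave -0.35 to 0.71, -0.70 to 0.61, -0.18 to 0.67 and -0.40 to 0.56 in that order. Leukocyte and platelet markers (6 of 12) gave -2.28 to -1.73, -1.93 to -1.75, -2.44 to -2.10 and -2.12 to -1.45. On these list means, endothelial markers were thus lower, and epithelial and mesothelial markers higher, in every array of the groups labelled as lacking Ets1 than in any Ets2 null array. Differences from wild type follow for Ets1 null, labelled double null and Ets2 null in turn. Cd34 differed by -3.29, -2.26 and -0.14, Fabp4 by -3.44, -1.73 and 2.28, and Eng by -1.26, -1.39 and 0.87. The other endothelial markers differed by less, Egfl7 by -0.51, -1.10 and -0.01 and Kdr by -0.25, -0.30 and -0.12. None of these endothelial differences was called. Krt19 differed by 3.35, 2.01 and 1.09. Msln differed by 3.06, 2.06 and -2.25, and Krt8 by 0.11, 0.28 and -0.41. Epcam went the other way, at -0.26, 0.12 and 0.19. The part of the markers in the results was not tested, and in bulk RNA fewer cells of a type and less RNA per cell cannot be told apart. Integrins and laminins are expressed by all of these cell types. Eif2s3y, a Y-linked gene, was high in all 3 Ets2 null arrays and in wild type array 1 and low in the other arrays, so sex differs with group as well. Only wild type held both kinds of array. A term for male arrays, used below, therefore rests on wild type array 1 against wild type arrays 2 and 3, and cannot separate sex from that array.

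Among the members, zyxin and integrin-linked kinase were the ones called lower in the arrays labelled double null against each of the other groups. The threshold for a call was an adjusted p under 0.05 in limma, with the Benjamini-Hochberg adjustment made over all 11015 genes. Against wild type, 2 of the 35 members were called higher in the arrays labelled double null, where 16.4% of all genes were, and 3 were called lower, where 12% of all genes were. The members' shares were 5.71% and 8.57%. These rest on 2 and 3 genes, the gap to all genes was not tested, and no trait of the module is read from it. The median member differed by -0.24, against 0.11 for all genes. In the deposited values no member was called higher, where 2.32% of all genes were, and 14 were called lower, where 43.6% were. The median there was -0.96 for the members and -0.61 for all genes.

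Neither single null had a member past the threshold. In Ets1 null arrays 0 members were called in either direction by limma, 6 having an unadjusted p under 0.05. Of all genes 0% passed as higher and 0.00908% as lower, with 959 at that unadjusted p. In Ets2 null arrays 0 members were called, 2 having an unadjusted p under 0.05. Of all genes 0.236% passed as higher and 0.2% as lower, with 2082 at that unadjusted p. The same counts were 0 in the deposited values. The 95% interval of the difference lay within 1 log2 unit either side of 0 for 15 members in Ets1 null and 12 members in the Ets2 null arrays, and was wider for the others. Across the 4 groups, limma's F test called 7 members (20% of 35) where it called 30.6% of all genes: Zyx, Ilk, Lamb2, Fermt2, Nid1, Pxn and Vcl.

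**Figure D1:**
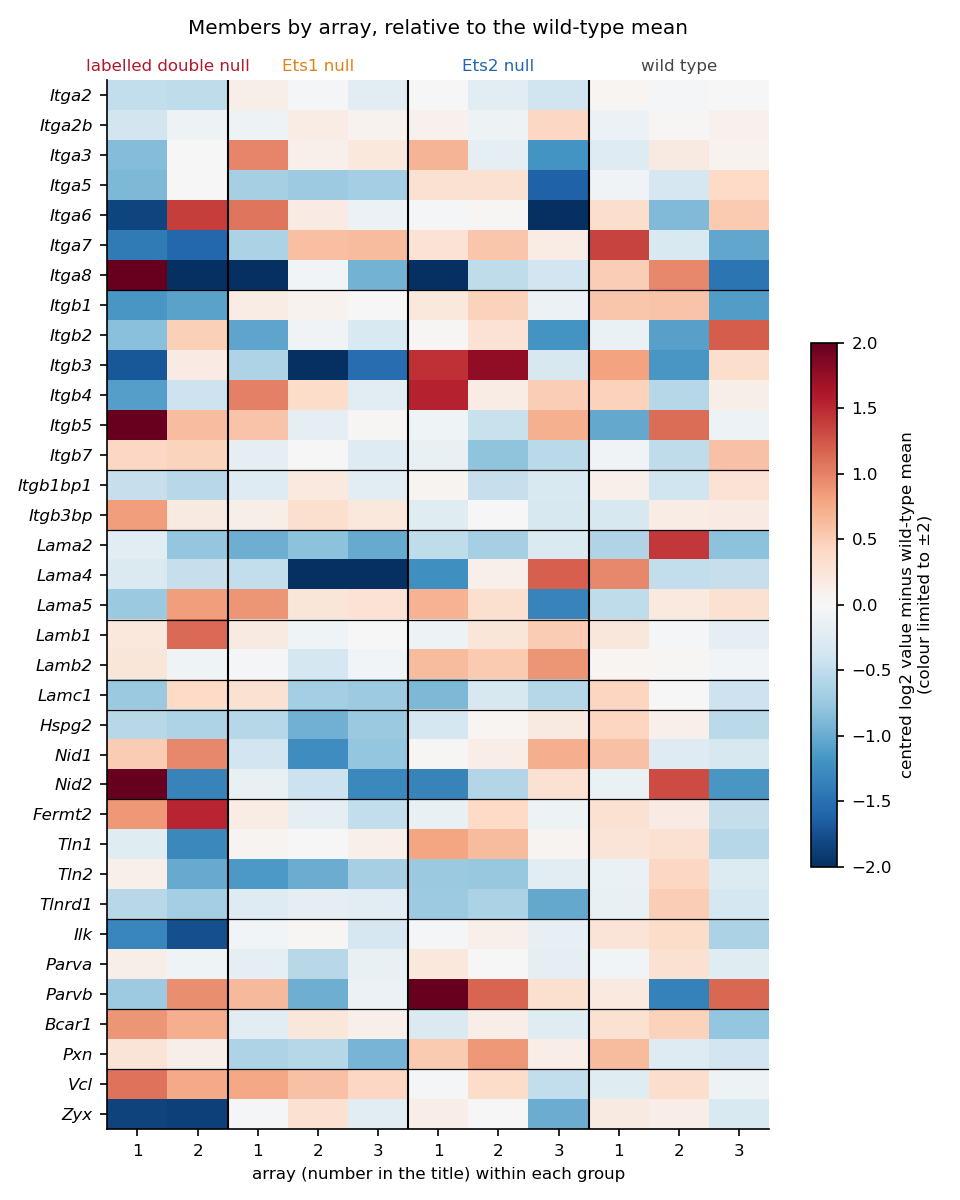
Centred log2 value of each of the 35 members (down) in each of the 11 arrays (across, by group), minus that member's wild type mean, with colour limited at 2 either side. Zyx and Ilk are low in both arrays labelled double null, while Itga8, Nid2 and Itga6 differ between those same arrays.

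Zyxin, an actin-binding LIM protein that is recruited to adhesions under tension, had centred values of 1.18 and 1.16 in both arrays labelled double null, 3.02, 3.33 and 2.82 in the Ets1 null arrays, 3.18, 3.05 and 2.05 in the Ets2 null arrays, and 3.22, 3.17 and 2.72 in wild type. Both arrays labelled double null lay below all 9 others, whose lowest value was that of Ets2 null array 3. Zyx was lower in the arrays labelled double null by -1.87 ± 0.33 against wild type (limma, SE, adjusted p = 0.004), -1.89 ± 0.33 against Ets1 null (0.0039) and -1.59 ± 0.33 against Ets2 null (0.00732). As deposited, the difference from wild type was -2.59 (adjusted p = 0.000213). Neither single null was called against wild type: the difference was 0.02 in Ets1 null (95% interval -0.64 to 0.68) and -0.28 in Ets2 null (-0.94 to 0.38). The second, dim Zyx probe set differed from wild type by -0.47 (limma, adjusted p = 0.111), so the call rests on the brighter probe set. When male arrays had a term of their own, the difference from Ets2 null was -1.32 (adjusted p = 0.226), and with only the arrays of the groups compared it had an adjusted p of 0.0512.

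Integrin-linked kinase, the pseudokinase that joins beta integrin tails to the parvins, had centred values of 1.69 and 1.25 in both arrays labelled double null, 2.95, 3.03 and 2.67 in the Ets1 null arrays, 2.98, 3.11 and 2.84 in the Ets2 null arrays, and 3.26, 3.37 and 2.38 in wild type. Both arrays labelled double null were again below all 9 others. Ilk was lower by -1.53 ± 0.29 against wild type (limma, SE, adjusted p = 0.00547), -1.41 ± 0.29 against Ets1 null (0.00806) and -1.50 ± 0.29 against Ets2 null (0.0057). The deposited difference from wild type was -2.25 (adjusted p = 0.000234). Without double null array 2 the difference from Ets1 null was -1.19 (adjusted p = 0.0557), with male arrays given a term that from Ets2 null was -1.12 (adjusted p = 0.231), and among the arrays of the groups compared alone that from wild type had an adjusted p of 0.0583. Ilk has 1 probe set on the table, so a second reading of the same gene cannot be given.

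The parvins, the partners of Ilk, were not called in any comparison. Parva, alpha-parvin, had centred values of 1.72 and 1.51 in both arrays labelled double null, 1.42, 1.05 and 1.45 in the Ets1 null arrays, 1.82, 1.61 and 1.41 in the Ets2 null arrays, and 1.55, 1.90 and 1.35 in wild type. The ranges of the arrays labelled double null and of wild type overlapped, and the difference was 0.01 (limma, adjusted p = 0.976). Parvb, beta-parvin, ranged from -2.56 to 1.37 over the 11 arrays, and its 3 wild type arrays alone ranged from -2.56 to -0.06.

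The promoter of Ilk is shown because Ets factors bind a GGAA core and Ilk was called against every other group on a single probe set. It is the 250 bases before the RefSeq start (GRCm38.p6, chr7:105736340-105736589, plus strand), with the only match to the Ets-type motif CCGGAAG in capitals.
Ilk promoter: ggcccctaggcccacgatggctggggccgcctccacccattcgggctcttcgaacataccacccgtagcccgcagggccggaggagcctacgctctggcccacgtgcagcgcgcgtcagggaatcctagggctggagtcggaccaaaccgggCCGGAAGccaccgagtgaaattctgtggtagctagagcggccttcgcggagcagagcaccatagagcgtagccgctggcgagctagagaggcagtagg
The match begins 98 bases upstream of the start. Searched on both strands, CCGGAAG occurred in the 250 upstream bases of 3 of the 24 members with a promoter in the RefSeq table (Ilk, Itga3 and Itgb1bp1, 12.5%) and of 2115 of 27025 genes (7.83%). Zyx had no match in its window. A match is only a description of these letters.

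Integrin alpha subunits, which set ligand choice, all had a centred difference below 0 between the arrays labelled double null and wild type. Over all genes the median difference was 0.11. The pair of arrays labelled double null disagreed for Itga8 and Itga6, and 1 Itga5 probe set had the other sign. Only 1 of the 7 subunits passed the test. That one was Itga2, the alpha subunit of a collagen and laminin receptor, with values of -3.28 and -3.29 in both arrays labelled double null, -2.66, -2.82 and -3.01 in the Ets1 null arrays, -2.78, -2.99 and -3.18 in the Ets2 null arrays, and -2.75, -2.83 and -2.79 in wild type. The gap to the nearest other array was small. The difference from wild type was -0.50 ± 0.16 (limma, SE, adjusted p = 0.0405). It is a dim probe set, with deposited values of 5.40 to 5.45 in the arrays labelled double null, and it was called in 8 of the 18 alternatives in which it was fitted. Leaving out either array labelled double null ended the call (adjusted p = 0.111 and 0.129), as did leaving out any wild type array, Ets1 null array 2 or Ets2 null array 2.

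Itga7, a laminin-binding alpha subunit, had values of -2.61 and -2.76 in both arrays labelled double null, -1.82, -0.59 and -0.56 in the Ets1 null arrays, -0.90, -0.63 and -1.04 in the Ets2 null arrays, and 0.16, -1.50 and -2.23 in wild type. Both arrays labelled double null lay below all the others, but wild type spread widely and the difference of -1.50 was not called (limma, adjusted p = 0.104). Itga5, the alpha subunit of the fibronectin receptor, had a centred difference of -0.46, with values of 0.35 and 1.23 in the arrays labelled double null and 1.18, 0.91 and 1.64 in wild type. These groups overlapped. Itga3, a laminin-binding subunit, differed by -0.44 and Itga2b, the platelet subunit, by -0.24, and neither passed. Dimmer Itga3 probe sets were lower by more. The dimmest had -2.89 and -2.75 in the arrays labelled double null, below all the other arrays, and -0.13, 0.36 and -0.95 in wild type. The next had -0.68 and 0.16 in the arrays labelled double null and 0.79, 1.25 and 1.01 in wild type. Of the remaining alpha subunits, Itga8 had values of 2.17 and -4.24 in the arrays labelled double null, and Itga6, another laminin-binding subunit, had -0.12 and 3.11. For these 2 genes the arrays of that group disagreed by more than any group means did, and no direction is given.

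The integrin beta subunits gave no call between the arrays labelled double null and wild type. Itgb1, the beta partner of most matrix-binding integrins, had centred values of 2.08 and 2.18 in both arrays labelled double null, 3.40, 3.32 and 3.25 in the Ets1 null arrays, 3.46, 3.71 and 3.13 in the Ets2 null arrays, and 3.80, 3.81 and 2.13 in wild type. Wild type array 3 lay with the arrays labelled double null, and the other 8 arrays were above 3. The difference from wild type was -1.11 ± 0.45 (limma, SE, adjusted p = 0.0923), and -1.84 in the deposited values (adjusted p = 0.0066). Itgb3, a beta partner of the alpha v subunit, had the largest F of the beta subunits (limma, adjusted p = 0.117). It had values of -1.12 and 0.74 in both arrays labelled double null, -0.03, -1.51 and -0.94 in the Ets1 null arrays, 2.05, 2.36 and 0.26 in the Ets2 null arrays, and 1.39, -0.58 and 0.94 in wild type. Its Ets2 null arrays were all above its Ets1 null arrays, and no comparison of Itgb3 was called.

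Itgb7, a leukocyte beta subunit, had centred values of -1.77 and -1.73 in the arrays labelled double null and -2.33, -2.98 and -2.72 in the Ets2 null arrays, groups that did not overlap, and was higher by 0.92 ± 0.30 (limma, SE, adjusted p = 0.0433). The deposited difference was 0.22 (adjusted p = 0.603), and the call held in 5 of 18 alternatives. Leaving out any array other than wild type 2, wild type 3 or Ets2 null 1 ended it (adjusted p from 0.0592 to 0.141). Itgb4, the beta subunit of the hemidesmosome integrin, had values of -2.71 and -2.03 in the arrays labelled double null and -0.08, -1.47 and -1.13 in the Ets2 null arrays, a difference of -1.48 (limma, adjusted p = 0.0513). Itgb2, the leukocyte beta subunit, ranged from -3.64 to -1.24 over all arrays, and Itgb5, another partner of alpha v, from 0.22 to 3.32, with no call for either. Alpha v itself, Itgav, is named by a letter and so is no member, but it is a subunit with which Itgb3 and Itgb5 pair. It had values of 4.04 and 4.34 in both arrays labelled double null, 2.89, 2.50 and 2.58 in the Ets1 null arrays, 3.03, 3.13 and 2.55 in the Ets2 null arrays, and 3.17, 2.97 and 2.28 in wild type. Both double null arrays, so labelled, stood above all others, by 1.38 ± 0.28 against wild type on the centred scale (limma, SE, adjusted p = 0.00757) and by 0.66 as deposited (adjusted p = 0.0623). The mean of its probe sets gave 0.20 (adjusted p = 0.696), and without double null array 2 the adjusted p was 0.0546.

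Of the proteins named for binding beta tails, Itgb3bp had centred values of -0.86 and -1.52 in the arrays labelled double null and -1.94, -1.70 and -2.01 in Ets2 null. These did not overlap, and the centred difference was 0.70 ± 0.23 (limma, SE, adjusted p = 0.0449), while the deposited one was -0.01 (adjusted p = 0.98). Without double null array 1 it was 0.36 (adjusted p = 0.292), and leaving out wild type array 2 or any Ets1 null or Ets2 null array also ended the call (0.0579 to 0.105). Itgb1bp1, which binds the beta 1 tail, had values of 0.80 and 0.71 in the arrays labelled double null and 1.37, 0.87 and 1.56 in wild type, a difference of -0.51 that was not called (limma, adjusted p = 0.147).

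Talin and kindlin are the activators of integrins. Fermt2, kindlin-2, had centred values of 2.64 and 3.28 in both arrays labelled double null, 1.90, 1.57 and 1.27 in the Ets1 null arrays, 1.62, 2.17 and 1.66 in the Ets2 null arrays, and 2.07, 1.93 and 1.28 in wild type. Both arrays labelled double null were above all 9 others. On the centred scale Fermt2 was higher by 1.20 ± 0.31 against wild type (limma, SE, adjusted p = 0.021), 1.38 against Ets1 null (0.0121) and 1.14 against Ets2 null (0.0242), and the deposited differences were 0.48, 0.61 and 0.44 with no call (adjusted p = 0.207, 0.116 and 0.248). Without double null array 2 the centred differences were 0.87, 1.05 and 0.82 and none was called (adjusted p = 0.145, 0.0833 and 0.157). The call against Ets2 null also ended without Ets2 null array 1 or 3 (0.0706 and 0.0535).

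Tln1, the main talin, had centred values of 1.99 and 0.95 in both arrays labelled double null, 2.29, 2.25 and 2.35 in the Ets1 null arrays, 3.03, 2.88 and 2.30 in the Ets2 null arrays, and 2.50, 2.54 and 1.67 in wild type. Those labelled double null lay below Ets2 null and overlapped wild type. The difference was -1.26 ± 0.36 against Ets2 null (limma, SE, adjusted p = 0.029) and -0.76 against wild type (adjusted p = 0.148). Without double null array 2 the difference from Ets2 null was -0.74 (adjusted p = 0.205), without Ets2 null array 1 or 2 its adjusted p was 0.0836 and 0.0769, and as the mean of its probe sets it was -0.12 (adjusted p = 0.822). The second, dim Tln1 probe set had the opposite sign, at 0.88 against Ets2 null and 0.83 against wild type (limma over all probe sets with 1 symbol, adjusted p = 0.0873 and 0.103). Tln2, the second talin, had values of -1.91, -1.76 and -1.44 in Ets1 null and -0.91, -0.36 and -1.05 in wild type, which did not overlap, with a difference of -0.93 ± 0.31 that was not called (limma, adjusted p = 0.483). Tlnrd1, which carries a talin rod domain, was below every wild type array in the Ets2 null arrays, with a difference of -0.79 ± 0.21 (limma, adjusted p = 0.11).

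Vinculin, which binds talin and actin, had centred values of 4.40 and 4.08 in both arrays labelled double null, 4.10, 3.90 and 3.74 in the Ets1 null arrays, 3.28, 3.69 and 2.83 in the Ets2 null arrays, and 3.09, 3.67 and 3.21 in wild type. The arrays labelled double null and Ets1 null overlapped each other and lay above wild type. Against wild type Vcl was higher by 0.92 ± 0.27 in the arrays labelled double null (limma, SE, adjusted p = 0.0335), and by 0.59 ± 0.24 in Ets1 null with no call (adjusted p = 0.562). Against Ets2 null the arrays labelled double null were higher by 0.98 (adjusted p = 0.0252). The deposited difference from wild type was 0.20 (adjusted p = 0.572), and the mean of the Vcl probe sets gave -1.45 (adjusted p = 0.0137), the opposite direction. Leaving out either array labelled double null, wild type array 1 or 3, Ets1 null array 2 or Ets2 null array 1 ended the call against wild type, with adjusted p from 0.0508 to 0.157. Leaving out either array labelled double null or Ets2 null array 1 or 3 ended the call against Ets2 null (0.0512 to 0.132).

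Paxillin, an adaptor of focal adhesions, had centred values of 2.86 and 2.72 in both arrays labelled double null, 1.99, 2.04 and 1.68 in the Ets1 null arrays, 3.12, 3.47 and 2.73 in the Ets2 null arrays, and 3.24, 2.34 and 2.22 in wild type. Its Ets1 null arrays were below every other array. No single comparison of Pxn was called, although the F test was (limma, adjusted p = 0.0446), and the Ets1 null difference from wild type was -0.70 ± 0.28 (adjusted p = 0.562). Bcar1, the Crk-binding adaptor p130Cas, had values of 1.60 and 1.44 in the arrays labelled double null and 1.02, 1.17 and -0.06 in wild type. Both arrays labelled double null were above all 9 others, and the difference of 0.81 from wild type was not called (limma, adjusted p = 0.103). The second Bcar1 probe set had the opposite sign, at -0.84 (limma over all probe sets with 1 symbol, adjusted p = 0.0622).

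**Figure D2:**
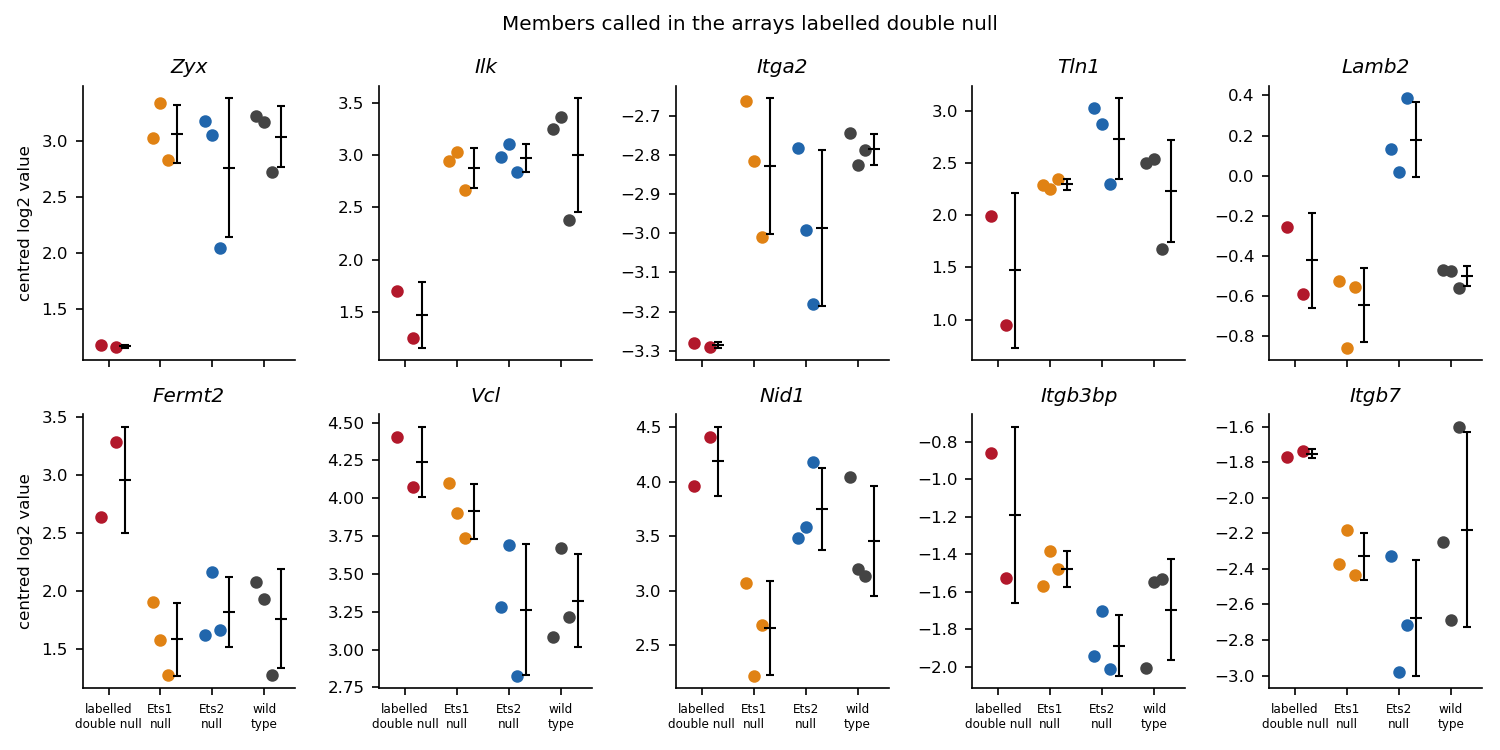
Centred log2 value (vertical axis) of the 10 members called in at least 1 comparison, by array within each group (points), with the group mean as a dash and the SD as its error bar. Zyx and Ilk lie below, and Fermt2 above, all 9 other arrays in both arrays labelled double null.

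Among the laminins, which cells lay down beneath themselves, Lamb2 differed most by the F test. Lamb2, the beta 2 chain, had centred values of -0.26 and -0.59 in both arrays labelled double null, -0.52, -0.86 and -0.55 in the Ets1 null arrays, 0.13, 0.02 and 0.39 in the Ets2 null arrays, and -0.47, -0.48 and -0.56 in wild type. All 3 Ets2 null arrays were above the other 8. The arrays labelled double null were lower than Ets2 null by -0.60 ± 0.17 (limma, SE, adjusted p = 0.0275), or by -0.55 (adjusted p = 0.329) with male arrays given a term. Without double null array 2 that difference was -0.44 (adjusted p = 0.162), and without Ets2 null array 1 or 3 the adjusted p was 0.0594 and 0.0609. Ets2 null exceeded wild type by 0.68 ± 0.15 (95% interval 0.34 to 1.03), which was not called over all genes (limma, adjusted p = 0.0819).

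Lama4, the alpha chain of the endothelial laminin, had centred values of 1.07 and 0.91 in both arrays labelled double null, 0.87, -1.35 and -1.58 in the Ets1 null arrays, 0.14, 1.48 and 2.56 in the Ets2 null arrays, and 2.33, 0.87 and 0.90 in wild type. The Ets1 null arrays lay below wild type, the nearest pair by less than 0.01. On the second Lama4 probe set these groups overlapped, with -0.95, -3.17 and -3.82 in Ets1 null and 0.37, -1.36 and -2.08 in wild type. By the brighter probe set the difference was -2.06 ± 0.77 (95% interval -3.80 to -0.32), not called over all genes (limma, adjusted p = 0.53). Lamc1, the shared gamma chain, ranged from 0.74 to 2.06 over all arrays with overlapping groups. Its second, dimmer probe set had -0.13 and 0.20 in the arrays labelled double null, above all the other arrays. Lama5, the other endothelial alpha chain, had values of 0.75 and 2.32 in the arrays labelled double null. Lamb1, the beta 1 chain, differed by 0.67 between the arrays labelled double null and wild type (limma, adjusted p = 0.103). Lama2, a chain of muscle laminin, was near its lowest level in 10 of the 11 arrays, between -3.03 and -2.26, and stood at -0.61 in wild type array 2.

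Neither the nidogens nor perlecan, which link the basement membrane, were called in Ets1 null against wild type. Nid1, nidogen 1, had centred values of 3.96 and 4.41 in both arrays labelled double null, 3.07, 2.22 and 2.68 in the Ets1 null arrays, 3.49, 3.59 and 4.18 in the Ets2 null arrays, and 4.04, 3.19 and 3.14 in wild type. All Ets1 null arrays were below all the others. On the centred scale the arrays labelled double null exceeded Ets1 null by 1.53 ± 0.35 (limma, SE, adjusted p = 0.0128), but by 0.77 as deposited (adjusted p = 0.1), by 1.31 without double null array 2 (adjusted p = 0.0789) and by 1.08 as the mean of its probe sets (adjusted p = 0.0725). Ets1 null differed from wild type by -0.80 ± 0.32 (adjusted p = 0.554).

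Hspg2, perlecan, had centred values of 0.81 and 0.73 in both arrays labelled double null, 0.78, 0.40 and 0.62 in the Ets1 null arrays, 1.01, 1.39 and 1.54 in the Ets2 null arrays, and 1.78, 1.47 and 0.83 in wild type. Both groups labelled as lacking Ets1 lay below every Ets2 null and wild type array, the nearest pair being 0.81 and 0.83. On the second Hspg2 probe set Ets1 null array 3 (0.48) was above wild type array 3 (0.47), so that split did not hold there. The difference from wild type was -0.59 in the arrays labelled double null (limma, adjusted p = 0.142) and -0.76 ± 0.25 in Ets1 null (adjusted p = 0.474), and neither was called. Nid2, nidogen 2, had values of 0.40 and -3.45 in the arrays labelled double null, so its arrays disagreed there and no direction is given.

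Counted without a test, every Ets1 null array was below every wild type array for 6 members (Hspg2, Itga5, Lama4, Nid1, Pxn and Tln2), 17.1% of the 35, where 11.5% of all genes were, and above for 1 member (Vcl), where 7% of all genes were. The next brightest probe set kept these groups apart for Pxn and Vcl, and overlapped for Hspg2, Itga5, Lama4, Nid1 and Tln2. Ets2 null arrays lay above wild type for Lamb2 alone, where 13.6% of all genes did, and below for Tlnrd1 alone, where 13.4% did. For 4 members both arrays labelled double null lay above wild type, as they did for 30.2% of all genes, and for 7 below, as for 22.1%. They lay above Ets1 null for 10 members (36.2% of all genes) and below for 11 (22.2%), and above Ets2 null for 5 (32.3%) and below for 11 (23.1%). Bcar1 and Fermt2 were above, and Ilk, Itga2, Itga7, Itgb1bp1 and Zyx below, all 9 other arrays, where 19.5% and 13.4% of all genes were.

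**Figure D3:**
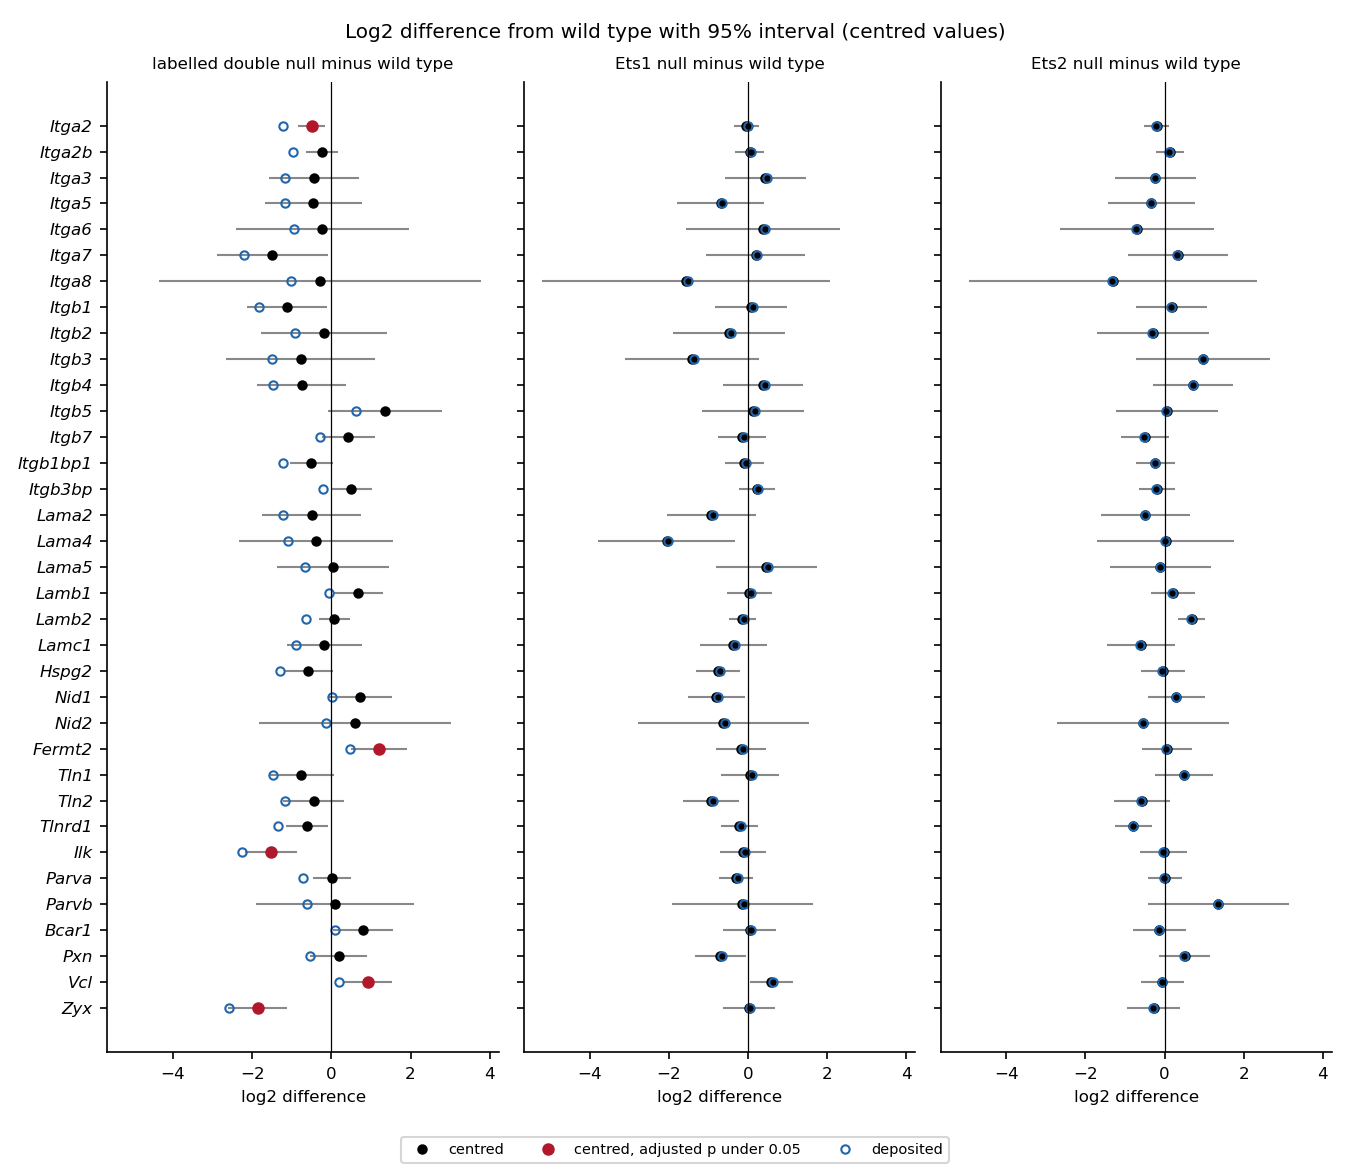
Log2 difference from wild type (horizontal axis) of each of the 35 members in 3 panels, the arrays labelled double null, Ets1 null and Ets2 null, with the 95% interval of the centred value, called members in red and deposited values as open points. The deposited points of the arrays labelled double null lie to the left of the centred ones for every member.

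The remaining comparisons of the arrays labelled double null share those 2 arrays with the one against wild type. Against Ets1 null, 2 members were called higher, where 17.4% of all genes were, and 2 lower, where 11.3% were. Against Ets2 null, 4 members were called in each direction, where 17.1% of all genes were called higher and 13.2% lower. The interaction asks whether Ets2 null differs from wild type by as much as the arrays labelled double null differ from Ets1 null. It called no member higher (7.54% of all genes) and 2 lower (6.94%), Zyx at -1.61 ± 0.44 (limma, SE, adjusted p = 0.0401) and Ilk at -1.38 ± 0.39 (adjusted p = 0.045). These calls held in 6 and 7 of 18 alternatives, and nearly every array left out ended them, with adjusted p from 0.053 to 0.124 for Ilk and from 0.058 to 0.0952 for Zyx among those that did.

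Where a member had several probe sets, they differed in how far they read the same way. For the 21 members with more than 1, the brightest and the next brightest probe set had the same sign of the Ets1 null difference from wild type in 19, and the gap between them had a median of 0.10 and never passed 1. For the Ets2 null difference 16 had the same sign, the median gap was again 0.10 and none passed 1. For the arrays labelled double null only 12 of 21 had the same sign, the median gap was 1.08, and the gap passed 1 in 11 members, or 52.4%. Over the 4785 genes with several probe sets the gap passed 1 in 1.19%, 2.99% and 30.3% for Ets1 null, for Ets2 null and for the arrays labelled double null. The disagreement in that group thus extended over all genes, and the difference between the 2 shares was not tested.

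Vinculin had the widest gap of those members. Its second probe set had centred values of -2.91 and -3.09 in both arrays labelled double null, 1.97, 1.56 and 1.63 in the Ets1 null arrays, 0.80, 1.21 and -0.38 in the Ets2 null arrays, and 0.84, 1.47 and 0.50 in wild type. That probe set was lower by -3.94 ± 0.43 against wild type (limma over all probe sets with 1 symbol, SE, adjusted p = 0.000317), where the brighter one was higher by 0.92 (adjusted p = 0.029). Lamb1 had probe sets at 0.67, -1.97 (adjusted p = 0.00381) and 0.86. Itga5 had probe sets at -0.46, -2.59 (adjusted p = 0.00265), -0.29 and 1.29. Nid1 had probe sets at 0.73, -0.36 and 0.23, none of them called. The sign against wild type in the arrays labelled double null therefore depends on the probe set for Vcl, Lamb1, Itga5 and Nid1, as for Tln1 and Bcar1 above. The brightest pair also had opposite signs for Parva, Pxn, Tln2 and Lamc1. Fermt2 read 1.20 and 0.66, and Hspg2 -0.59 and -0.96 (adjusted p = 0.0245 for the second), so both had 1 sign.

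**Figure D4:**
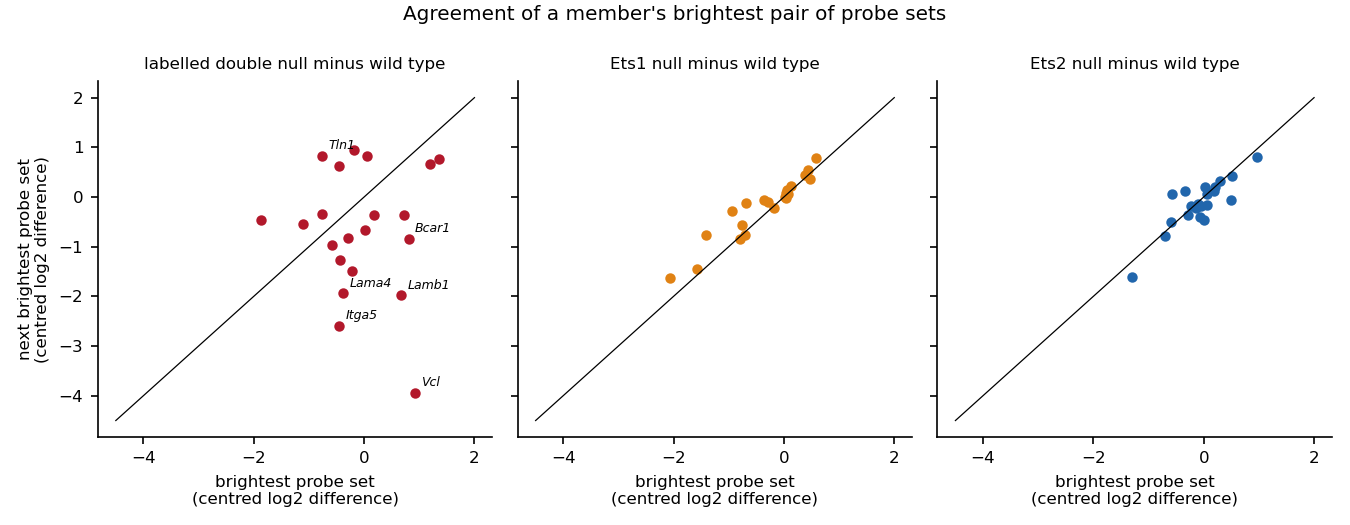
For the 21 members with several probe sets, the centred log2 difference from wild type by the brightest probe set (horizontal axis) against the next brightest (vertical axis), in 3 panels, the arrays labelled double null, Ets1 null and Ets2 null, with the line of equality. Points follow the line in both single nulls, and 11 of 21 lie over 1 log2 unit from it in the arrays labelled double null.

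The spread of members within groups sets what can be seen. The median SD of the 35 members was 0.38 in both arrays labelled double null, 0.24 in the Ets1 null arrays, 0.33 in Ets2 null and 0.49 in wild type. The arrays of a group differed by more than 1 log2 unit for 11 members in both arrays labelled double null, 9 in the Ets1 null arrays, 13 in Ets2 null and 15 in wild type. Wild type array 3 was the lowest of its group for Itgb1, Ilk and Bcar1, and Ets2 null array 3 for Itga5, Itga6, Lama5 and Zyx. Without wild type array 3, Zyx and Ilk were still called lower in the arrays labelled double null than in wild type, and Itga2 was not.

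Other genes of the same pathway were read from lists, which were made with earlier results of these data known. No listed gene was called in Ets1 null or Ets2 null against wild type. Of 28 actin linkers and adaptors on the table, 6 were higher and 1 lower in the arrays labelled double null than in wild type, where 16.4% and 12% of all genes were, and 2 of the 6 were also called as deposited. Their median difference was 0.52, against 0.11 for all genes. The lower one was Vasp, which promotes actin filament growth and binds zyxin, with centred values of -0.61 and -1.36 in both arrays labelled double null, 1.90, 1.97 and 1.76 in the Ets1 null arrays, 2.07, 2.70 and 1.34 in the Ets2 null arrays, and 2.50, 2.04 and 1.18 in wild type. Both arrays labelled double null lay below all 9 others, and the difference from wild type was -2.89 ± 0.45 (limma, SE, adjusted p = 0.00253), called in all 19 alternatives. The largest rises were those of the actin-bundling palladin, Palld (1.96, adjusted p = 0.0136), and Lims2, a PINCH partner of Ilk (1.69, adjusted p = 0.0282, and 0.97 with 0.129 as deposited). Palld differed by 1.53 without double null array 1 (adjusted p = 0.0905), and Lims2 was not called without either array labelled double null or without wild type array 1 or 2 (adjusted p from 0.0523 to 0.107).

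Of 22 laminin receptors other than integrins and integrin partners, 5 were higher and 2 lower, beside 16.4% and 12% of all genes, with a median of 0.39. Of the 5 higher ones 0 were also called as deposited, and both lower ones were. Tspan4, a tetraspanin, had centred values of 0.29 and -0.21 in both arrays labelled double null, 2.62, 2.79 and 3.23 in the Ets1 null arrays, 3.33, 3.63 and 2.93 in the Ets2 null arrays, and 3.59, 3.18 and 2.12 in wild type. Both arrays so labelled lay below all others, and the difference from wild type was -2.93 ± 0.41 (limma, SE, adjusted p = 0.00164). Bcam, a receptor for laminins with the alpha 5 chain, was lower by -1.31 (adjusted p = 0.0222), a call that held in 12 of 18 alternatives. It was lost without either array labelled double null, without wild type array 1 or 2 and with male arrays given a term (adjusted p from 0.0574 to 0.0882). Dag1, dystroglycan, was higher by 0.94 on the centred scale (adjusted p = 0.00578) and by 0.22 as deposited (adjusted p = 0.343).

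Ligand genes called against wild type were all higher on the centred scale in the arrays labelled double null. They were 2 of 13 matrix ligands, with a median of 0.74, 2 of 8 cell surface ligands, with 0.66, and 1 of 14 other basement membrane genes, with 0.44, beside 16.4% of all genes called higher. The matrix ligands were Edil3, which binds alpha v integrins (2.91, limma, adjusted p = 0.0296), and Fn1, fibronectin (0.74, adjusted p = 0.00679). The cell surface ones were Alcam, an adhesion protein (2.80, adjusted p = 0.0237), and Adam17, a sheddase (1.03, adjusted p = 0.0112), and the basement membrane gene was Col4a5, a type IV collagen chain (1.85, adjusted p = 0.0173). None of these 5 passed in the deposited values, where Edil3 differed by 2.19, Fn1 by 0.02, Alcam by 2.08, Adam17 by 0.31 and Col4a5 by 1.13, and the mean of Adam17's probe sets gave -0.90. Edil3, Alcam, Adam17 and Col4a5 were not called without double null array 2 (adjusted p = 0.129, 0.141, 0.0763 and 0.114), nor were Edil3, Alcam and Col4a5 without wild type array 2 (0.0809, 0.0643 and 0.0523), Edil3 without double null array 1 (0.0829) or Alcam without wild type array 1 (0.0681).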

How the data were processed

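The authors deposited 1 table of log2 values, 1 per probe set and array, made with RMA per the submitters' processing notes. Its version, any filter and joint or separate normalization of the arrays are not given in the sources. Groups follow titles and genotypes, since free-text descriptions of the single nulls give that gene as wild type. Of 20523 probe sets, 18824 carried 1 gene symbol in the platform annotation, 549 several and 1150 none; a gene was its brightest probe set with 1 symbol. No probe set with several symbols matched a member.

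Centring subtracted from each array its median over 11015 genes. limma 3.58.1 (R 4.3.3; lmFit and eBayes, two-sided) fitted group means over 11 arrays with 7 residual degrees of freedom, and p-values were adjusted by Benjamini-Hochberg over all genes, called under 0.05. The fit was checked on simulated data. The number of arrays limits the precision.

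The members and lists were chosen with earlier results of these data known. Every member is named; array values are given for members called in centred and deposited values alike, up to 8 in each direction a comparison, for the member with the largest F in each role class, and for other members singled out after their values were seen. From each list up to 3 called genes with the largest difference from wild type are named; 1 list is not reported here. Arrays were called male at an Eif2s3y log2 value over 6. Alternatives were the deposited values, quantile normalization, the mean of a gene's probe sets, leaving out the dimmest genes (lowest 0.25 by mean), a replicate block, all 12 columns, a term for male arrays, only the arrays compared, and each array left out. In comparisons without Ets2 null, the term for male arrays gave the same counts over all genes as leaving out wild type array 1. There they are not separate alternatives. Sequences are from RefSeq; protein sequences were not used here. Tables and figures were made with Python 3.11.15, pandas 2.3.3 and matplotlib 3.10.9.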

Additional observations from a re-analysis of the deposited data

Results flagged for a closer look

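By limma's interaction term, 2 members and 8 listed genes were called. The term is (labelled double null minus Ets1 null) minus (Ets2 null minus wild type). It asks whether the difference that goes with Ets2 deletion and Cre differs between the Ets1-/- and the Ets1+/+ background. Only listed genes already called against wild type, up to 3 a list, were looked at. That comparison shares arrays with this term, so the 8 are not a count over the lists. Of all genes 7.54% were called higher and 6.94% lower. Lower values were found for Zyx at -1.61 ± 0.44 (SE, adjusted p = 0.0401), Ilk at -1.38 ± 0.39 (0.045), Vasp at -3.00 ± 0.61 (0.014), Csk at -0.96 ± 0.26 (0.0404), Arhgef7 at -1.74 ± 0.39 (0.0196) and Tspan4 at -3.17 ± 0.55 (0.00802). Higher values were found for Itgav at 1.44 ± 0.38 (adjusted p = 0.037), Rock1 at 1.13 ± 0.23 (0.0137), Adam17 at 1.57 ± 0.31 (0.0132) and Dag1 at 1.06 ± 0.24 (0.0221). In the deposited values these last 4 were 0.69 for Itgav, 0.38 for Rock1, 0.82 for Adam17 and 0.31 for Dag1, and none was called (limma, adjusted p = 0.162, 0.217, 0.0633 and 0.359). The Csk call held in 8 of 18 alternatives and was lost with male arrays given a term and without either array labelled double null, wild type array 2 or any Ets1 null or Ets2 null array (adjusted p from 0.051 to 0.183). The calls held in 6 of 18 for Zyx and for Itgav, 7 for Ilk, 9 for Dag1, 15 for Arhgef7, 16 for Rock1 and for Adam17, 17 for Vasp and 18 for Tspan4. All rest on the 2 arrays labelled double null, in which the Ets1 and Ets2 probe sets go against the label.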

How the results depend on the processing

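Of 100 gene comparisons named, 42 were called, and over 19 alternatives 1639 of 1857 values kept their direction and side of the threshold, 190 lost the call, 21 gained one and 7 reversed. Zyx against wild type and against Ets1 null was called in 19 of 19 alternatives, and Ilk in 18 of 19. The reversed values were, as deposited, Itgb3bp against Ets2 null (-0.0088) and Lamb2 against wild type (-0.64) and Ets1 null (-0.54), and, as the mean of probe sets, Vcl against wild type (-1.45) and Ets2 null (-1.21) and Adam17 against wild type (-0.90) and in the interaction (-0.42). The cause was not tested.

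Counts of members called higher and lower in the arrays labelled double null changed by over 1.5 times as follows, the centred counts being 2 and 3 against wild type, 2 and 2 against Ets1 null, 4 and 4 against Ets2 null, 0 and 2 for the interaction and 7 for the F test. As deposited they were 0 and 14, 0 and 12, 0 and 14, 9 lower for the interaction and 13 for the F test. Of all genes 43.6%, 42.8%, 43.3% and 30.1% were then called lower and 48.1% in the F test. Quantile normalization gave 1 higher against wild type (12.4% of all genes), 4 lower against Ets1 null (12.8%), and 1 and 7 against Ets2 null (12.7% and 14.4%). The mean of probe sets gave 1 higher against wild type (16.6% of all genes), 1 and 4 against Ets1 null (17% and 11.6%) and 1 lower for the interaction (7%). Without the dimmest 0.25 of genes 2 were higher against Ets2 null (18.2% of all genes kept). All 12 columns, which count the mean column as an array, gave 4 and 6 against wild type (23.6% and 16% of all genes). They gave 5 lower against Ets1 null (14.8%), 7 lower against Ets2 null (17.4%) and 1 higher for the interaction (13.8%). They also gave 14 for the F test, and 1 higher in Ets2 null against wild type (1.63%). A term for male arrays gave 1 higher against wild type (12.3% of all genes), 0 and 0 against Ets2 null (0.808% and 1.56%) and 0 lower for the interaction (3.04%). It gave 3 for the F test, and it rests on wild type array 1 against the other wild type arrays. With only the arrays compared there were 0 and 1 against wild type (6.01% and 6.02% of all genes), 4 and 4 against Ets1 null (13.1% and 9.73%), and 1 higher against Ets2 null (8.83%). The interaction and F test have no such version.

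With single arrays left out, counts ranged from 1 to 3 higher and 2 to 6 lower against wild type, 1 to 3 and 1 to 4 against Ets1 null, 0 to 5 and 2 to 6 against Ets2 null, 0 to 2 and 0 to 1 for the interaction, 1 to 11 for the F test, and 0 to 0 in both single nulls. A group left with 2 arrays, or with 1 where an array labelled double null was left out, is assumed to vary like the others. Same-numbered arrays showed no joint deviation (15 pairs, r from -0.32 to 0.10). In groups of 2 or 3 arrays the deviations depend on each other, so this cannot decide whether the numbers pair the samples. With the replicate block there was 1 higher against wild type (12.7% of all genes), 4 lower against Ets1 null (9.71%) and 2 higher against Ets2 null (13.1%), and 4 for the F test.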
